A study of Mus musculus with 6 samples.

Results

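The Ikaros family was read out in mouse Th17 cells as the rows of Ikzf1, Ikzf2, Ikzf3, Ikzf4 and Ikzf5, 5 genes of 31017 in the count table. They were selected by name, with earlier results of these data known, and all 5 passed the filter on low counts that left 14268 genes for testing. RNA sequencing covered 6 libraries of Th17 cells differentiated in culture, 3 from wild-type (control) cells and 3 from cells labelled knockout (KO) and deficient in RTF1. RTF1 works with the PAF1 complex on elongating RNA polymerase II and promotes ubiquitination of histone H2B, and the study asked how its loss changes the Th17 transcriptome. How the gene was deleted, the strain, the age of the mice and the culture conditions are not given in the sources used here, nor is it stated whether the 3 libraries of a group came from separate mice, so p-values measure the spread between these libraries only.

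Ikaros proteins are zinc finger transcription factors of lymphocytes. Fingers near the amino terminus bind DNA at sequences with a GGGA core, and fingers at the carboxyl terminus let members pair with themselves and with one another. They recruit chromatin complexes, above all the NuRD deacetylase and remodelling complex, and can silence or maintain their targets. Ikaros (Ikzf1) is broadly expressed in lymphocytes, Aiolos (Ikzf3) is known to be induced during Th17 differentiation by STAT3 and the aryl hydrocarbon receptor and to silence Il2, Helios (Ikzf2) and Eos (Ikzf4) are best known from regulatory T cells, and Pegasus (Ikzf5) is the most divergent member.

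Total counts per library ran from 16489813 to 51271226. Rtf1 was lower in every KO library, at 45.3, 30.4 and 26.2 CPM (counts scaled to a common library size with TMM factors) against 94.0, 91.2 and 88.3 CPM in control. Wherever 3 values of a group are listed, they belong to replicates 1, 2 and 3 in that order. Which exons were removed is not given, so this whole-gene count checks the labels but does not measure intact transcript. T cell markers together held 1718 to 2060 CPM in control and 1436 to 1634 CPM in KO. Of these 6 genes 2 were higher and 3 lower in KO at an edgeR adjusted p under 0.05, a threshold that 46.1% of all tested genes passed. The defining cytokine gene Il17a held 222 to 347 CPM in control and 40.3 to 161 CPM in KO, and Il17f held 938 to 1538 and 329 to 817 CPM. Both were present in all libraries but lower in KO (log2 fold change −1.65 and −1.28, edgeR adjusted p = 0.0125 and 0.0144). With 1 library left out, Il17f passed in 3 of 6 fits. Of the B cell markers, Ms4a1, Pax5 and Blk stayed at or under 0.143 CPM in every library, while Ebf1 held 6.44 to 15.0 CPM in control and 1.92 to 13.1 CPM in KO, and Cd79a held 0.702 to 2.16 CPM over all libraries. Libraries numbered 3 in both groups held 11376 and 5147 counts of 4 Y-linked genes, against 1 to 3 counts in the others. Their Xist counts were 5 and 1, against 14668 to 28176 in the others. By these counts the libraries numbered 3 are male and those numbered 1 and 2 female. A pattern of replicate 3 therefore cannot be told apart from sex, and results are also given for the libraries numbered 1 and 2 alone.

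Within the family, Ikzf1 fell and Ikzf2, Ikzf4 and Ikzf5 rose in KO, while Ikzf3 did not pass the test. Thus 4 of the 5 members were called (edgeR's quasi-likelihood test, Benjamini-Hochberg adjusted p under 0.05), in a comparison in which 46.1% of all tested genes were called, 23.2% higher and 22.9% lower. The same 4 members had no overlap between the libraries of the groups, which was the case for 57.9% of tested genes (29.9% with KO above, 28% with KO below). The largest change was that of Ikzf2, which rose 3.32-fold, a larger change than that of 90.7% of tested genes. The change of Ikzf1 exceeded that of 56.4%, of Ikzf5 that of 54.9% and of Ikzf4 that of 36.4%.

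**Figure D1:**
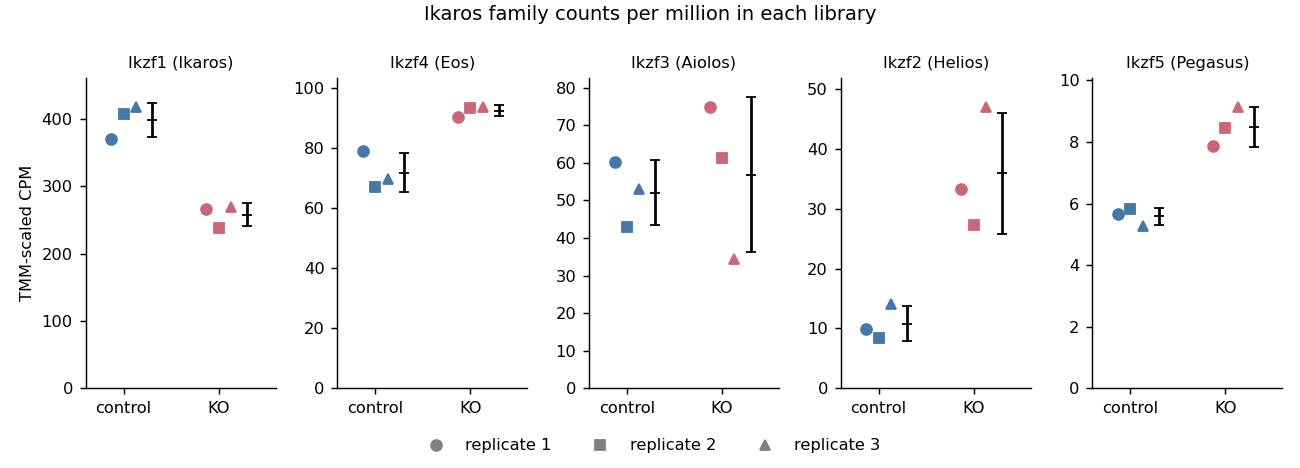
TMM-scaled CPM of each Ikaros family gene in the 6 libraries, 1 panel per gene with its own axis from 0. Symbols are replicates, and bars beside them are the mean and SD over 3 libraries of a group. The KO libraries lie below all control libraries for Ikzf1, above them for Ikzf4, Ikzf2 and Ikzf5, and on both sides for Ikzf3.

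Ikzf1, the founding member, was measured at 371, 408 and 419 CPM in control and at 266, 239 and 270 CPM in KO. No KO library reached the lowest control library, and the spread within either group was small beside the gap. The means were 399 ± 25.2 and 258 ± 16.9 CPM (SD, n = 3). On the log2 scale the difference was −0.63 with an SE of 0.116 (edgeR adjusted p = 0.00289), so that 64.7% of the control level remained. The exact two-sided permutation test over libraries gave p = 0.1, the smallest value that 3 against 3 libraries allow, for this gene and for each of the other called members. The decrease was called in each of the 6 fits with 1 library left out (−0.75 to −0.57), and it was −0.63 in the libraries numbered 1 and 2 (edgeR adjusted p = 0.00606). As in all bulk samples, fewer cells that express a gene and less RNA per cell cannot be told apart.

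Ikzf1 lies on chromosome 11 of GRCm38, at chr11:11685003-11772926 on the plus strand, and none of its exonic bases is shared with another annotated gene. RefSeq lists windows around 2 start sites for it. The first is dense in CG dinucleotides, with 52 in 300 bases, where the median over all promoter windows of that length is 7, and the second, at chr11:11689927-11690226, holds 2. Counts per gene do not separate transcripts from these starts, nor the splice forms that lack DNA-binding fingers. The 250 bases before the first RefSeq start are shown because this is the member that dominates the family and the one that fell. They lie inside the gene span given above, which comes from another annotation (GENCODE) and begins further upstream. They cover chr11:11685675-11685924, are printed on the plus strand from RefSeq (GRCm38.p6), and have CG dinucleotides in capitals.
Ikzf1: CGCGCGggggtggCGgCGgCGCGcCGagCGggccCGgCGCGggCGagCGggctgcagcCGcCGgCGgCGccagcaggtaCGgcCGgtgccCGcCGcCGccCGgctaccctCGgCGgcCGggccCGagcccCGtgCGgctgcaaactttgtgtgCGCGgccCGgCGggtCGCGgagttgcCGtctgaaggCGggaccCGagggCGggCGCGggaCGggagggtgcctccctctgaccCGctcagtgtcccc

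Ikzf2 (Helios), a factor associated with regulatory T cells and with T cell receptor signalling, was a minor transcript in control cells, at 9.91, 8.40 and 14.0 CPM. In KO it reached 33.3, 27.3 and 47.1 CPM. Every KO library exceeded every control library, and replicate 3 was the highest in both groups. The log2 fold change was 1.73 with SE 0.253 (edgeR adjusted p = 0.00109). Between libraries of equal replicate number the log2 ratio was 1.75, 1.70 and 1.75. The labels do not say that equal numbers are pairs, so the closeness of these ratios depends on that match. Matched in the same way, the ratios were −0.48, −0.77 and −0.64 for Ikzf1 and 0.19, 0.48 and 0.43 for Ikzf4. For Ikzf5 they were 0.48, 0.54 and 0.79. The rise of Ikzf2 was called in all 6 fits with 1 library left out (1.49 to 1.92). It was also called in the libraries numbered 1 and 2 alone (1.73, edgeR adjusted p = 7.32e-05). With the replicate number as a block the estimate was 1.73 with an edgeR adjusted p of 1.59e-05. The gene occupies chr1:69531214-69687245 on the minus strand, and 1.24% of its exonic bases overlap the antisense transcript Gm29114, which held at most 0.61 CPM in any library.

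Regulatory T cell genes were examined beside Helios. Foxp3, the lineage factor of those cells, was low in all libraries, at 1.24 to 1.63 CPM in control and 1.93 to 4.56 CPM in KO (log2 fold change 1.21, SE 0.366, edgeR adjusted p = 0.0244), which did not pass without control replicate 1 or 3 or without KO replicate 1 or 2 (adjusted p up to 0.0960). KO replicate 3, with the most Ikzf2, had the least Foxp3 of the KO libraries. It held 1.93 CPM (38 counts), against 4.56 CPM (120 counts) in KO replicate 1 and 3.39 CPM (127 counts) in KO replicate 2. An order of 3 libraries cannot test a link between these genes. The 5 regulatory T cell markers (Foxp3, Il2ra, Ctla4, Tnfrsf18 and Nrp1) summed to 4371 to 4897 CPM in control and 1439 to 1800 CPM in KO, with 2 called higher and 3 lower (46.1% of all tested genes were called). Il2ra (3494 and 1216 CPM on average in control and KO) and Ctla4 (1002 and 236 CPM) made up most of this sum, while Foxp3 and Nrp1 were the 2 called higher. The part of such cells in the rise of Ikzf2 was not tested.

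Ikzf4 (Eos), which acts as a corepressor with FOXP3 in regulatory T cells, was read at 79.0, 66.8 and 69.4 CPM in the wild type against 90.3, 93.2 and 93.7 CPM after loss of RTF1. The KO libraries were nearly equal to one another and all above control, with control replicate 1 the nearest to them. The change was modest, a log2 fold change of 0.37 with SE 0.108 (edgeR adjusted p = 0.0222), or 1.29-fold. When single libraries were left out, it passed only without KO replicate 1 (0.38) and missed the threshold in the other 5 fits (0.29 to 0.37, adjusted p up to 0.0734), and in the libraries numbered 1 and 2 (0.33, edgeR adjusted p = 0.0663). Ikzf4 lies at chr10:128630843-128645991 on the minus strand, and 0.617% of its exonic bases overlap the opposite-strand lincRNA Gm26876.

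Ikzf5 (Pegasus), expressed in many tissues and less like the others in its DNA-binding fingers, was read at 5.65, 5.82 and 5.27 CPM in the wild type against 7.86, 8.47 and 9.15 CPM after loss of RTF1. The groups did not overlap, and the log2 fold change was 0.60 with SE 0.190 (edgeR adjusted p = 0.0287). It was lost in 4 of 6 fits with 1 library left out, those without control replicate 1 or 3 or KO replicate 2 or 3 (0.50 to 0.65 over all 6, adjusted p up to 0.103), in the libraries numbered 1 and 2 (0.51, edgeR adjusted p = 0.111) and without a filter on low counts (0.59, adjusted p = 0.0561). Its count is uncertain, because 81.3% of its exonic bases are shared with Pstk, a kinase gene of selenocysteine synthesis on the opposite strand, and the strand setting is not given. Without that setting it cannot be said how reads there were divided between the genes. The model Gm44624, also on the opposite strand, overlaps 3.20% of the exonic bases of Ikzf5, which may include bases shared with Pstk. Pstk moved the other way, from 18.1 ± 2.56 to 12.2 ± 1.66 CPM on average (SD, n = 3), or by −0.57 in log2 units (edgeR adjusted p = 0.0259, not passed without control replicate 2, KO replicate 1 or KO replicate 3, nor in the libraries numbered 1 and 2).

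At its other end Ikzf5 (chr7:131388652-131410521, minus strand) faces Acadsb, which encodes an acyl-CoA dehydrogenase and starts 79 bases away on the plus strand. Acadsb was read at 27.2, 30.5 and 39.6 CPM in the wild type against 45.7, 50.1 and 59.1 CPM after loss of RTF1, a log2 fold change of 0.67 with SE 0.169 (edgeR adjusted p = 0.0118, lost without control replicate 1, where it was 0.50). Both genes of the head-to-head pair therefore had all KO libraries above all control libraries. The interval between their annotated starts, chr7:131410522-131410600, is shown because both move the same way. It is printed on the strand of Ikzf5 from RefSeq (GRCm38.p6), with CG dinucleotides in capitals.
Ikzf5: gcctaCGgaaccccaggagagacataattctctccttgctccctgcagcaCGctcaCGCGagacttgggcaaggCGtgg

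Promoter windows in the RefSeq table were found for 2 of the 5 members, Ikzf1 and Ikzf5, and not for Ikzf2, Ikzf3 and Ikzf4. The letters TGGGAA, a longer form of the Ikaros binding core searched on both strands, occurred in none of these 3 windows of 300 bases (2 for Ikzf1 and 1 for Ikzf5), while 25.6% of 32851 promoter windows of the same length hold them. The shorter core GGGA was not counted. It occurs in the printed Ikzf1 stretch and on the opposite strand of the printed Ikzf5 interval. The search therefore does not show that these promoters lack the core.

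Ikzf3 (Aiolos) was the member without a call. Its values were 60.2, 43.0 and 52.9 CPM in control, against 75.02, 61.3 and 34.4 CPM in KO. The KO group contained both the highest and the lowest of the 6 values, and its spread (56.9 ± 20.7 CPM, SD, n = 3) was wider than that of control (52.0 ± 8.64 CPM). The log2 fold change was 0.13 with SE 0.258 (edgeR adjusted p = 0.698) and its 95% interval, −0.45 to 0.72, holds changes of either sign. The difference between equal replicate numbers was 0.32 and 0.51 on the log2 scale for numbers 1 and 2 and −0.62 for number 3. Without KO replicate 3 the estimate was 0.39 (edgeR adjusted p = 0.117), in the libraries numbered 1 and 2 it was 0.41 (adjusted p = 0.0826), and without KO replicate 1 it was −0.12 (adjusted p = 0.731). KO replicate 3 thus held the least Ikzf3 and the most Ikzf2 of the KO libraries. Ikzf3 lies at chr11:98464902-98546031 on the minus strand, and none of its exonic bases is shared with another annotated gene.

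The factors known to induce Aiolos in Th17 cells were not called either. Ahr, the aryl hydrocarbon receptor, was read at 167, 157 and 258 CPM in the wild type against 172, 133 and 97.9 CPM after loss of RTF1 (log2 fold change −0.53, edgeR adjusted p = 0.101). As for Ikzf3, KO replicate 1 was the highest and KO replicate 3 the lowest of the KO libraries. In control the orders differed, since Ahr was highest in replicate 3 and Ikzf3 in replicate 1. A link between these genes was not tested. Without KO replicate 1 Ahr was called lower (−0.75, edgeR adjusted p = 0.0382), while without control replicate 3 its estimate was −0.33, without KO replicate 3 it was −0.35, and in the libraries numbered 1 and 2 it was −0.090 (adjusted p = 0.660). Stat3 had a log2 fold change of 0.15 (edgeR adjusted p = 0.316).

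**Figure D2:**
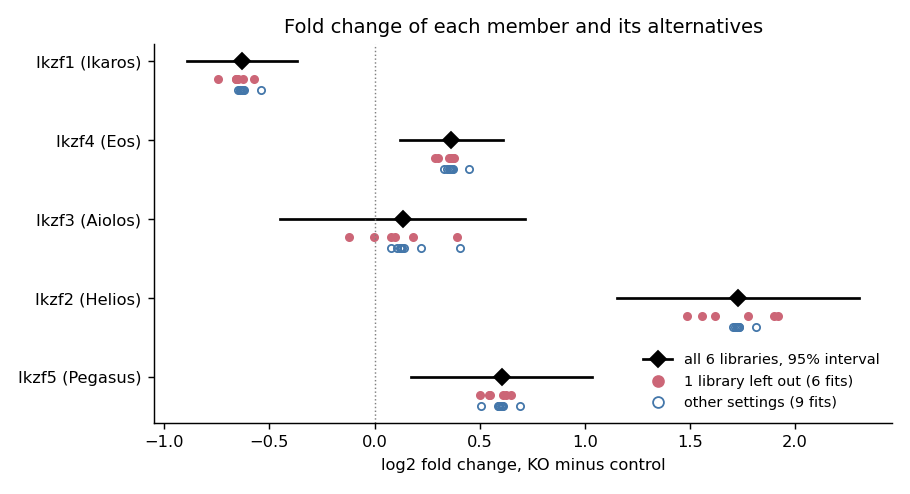
Log2 fold change of each Ikaros family gene, KO minus control, with its 95% interval over all 6 libraries (black), the 6 fits that each leave out 1 library (red) and the 9 other settings (open blue). Points of Ikzf1, Ikzf4, Ikzf2 and Ikzf5 stay on 1 side of 0, and those of Ikzf3 cross it.

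To compare members with one another, counts were divided by length, as CPM per kilobase of annotated exon. In control cells Ikzf1 stood far above the rest at 69.1 ± 4.35 CPM per kilobase (SD, n = 3), followed by Ikzf4 at 12.0 ± 1.07 and Ikzf3 at 5.94 ± 0.987. Ikzf5 (0.976 ± 0.0489) and Ikzf2 (0.929 ± 0.251) came last and overlapped in their library ranges, as neighbours in this order that do not differ beyond their spread. The place of Ikzf5 is uncertain in both groups, because its length includes the 81.3% of exonic bases shared with Pstk and it is not known how reads there were counted. On this scale the control level of Ikzf1 exceeded that of 95.4% of 14127 tested genes with a known length, and that of Ikzf2 exceeded 25.2%. The distance between Ikzf4 and Ikzf3 rests on the length used: with the longest annotated transcript in place of all exons, Ikzf3 reached 11.3 CPM per kilobase against 13.9 for Ikzf4, and their control ranges overlapped.

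In KO cells the order was Ikzf1 (44.7 ± 2.93 CPM per kilobase), Ikzf4 (15.4 ± 0.306), Ikzf3 (6.50 ± 2.36), Ikzf2 (3.09 ± 0.873) and Ikzf5 (1.48 ± 0.113; SD, n = 3 each). Ikzf2 had moved clear of Ikzf5 and now overlapped Ikzf3, since KO replicate 3 held 4.05 CPM per kilobase of Ikzf2 and 3.93 of Ikzf3. With the longest transcript as length the KO ranges of Ikzf2 (2.94 to 5.07) and Ikzf3 (7.46 to 16.3) did not overlap. The summed level of the family was 86.1, 88.4 and 92.2 CPM per kilobase in control, against 73.9, 67.7 and 71.9 in KO. Every KO sum was below every control sum.

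The composition of the family shifted with these changes. Ikzf1 made up 77.7% ± 2.77 of the summed per-length level in control and 62.8% ± 1.98 in KO (SD, n = 3). Ikzf4 went from 13.5% ± 1.57 to 21.7% ± 1.30, and Ikzf2 from 1.04% ± 0.250 to 4.33% ± 1.15. For these 3 members no KO library overlapped a control library in its share. The Ikzf1 level was 75.2, 97.6 and 59.9 times that of Ikzf2 per kilobase in control, against 16.0, 17.6 and 11.5 times in KO. These are shares of RNA within a family whose proteins pair with one another, and protein was not measured.

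**Figure D3:**
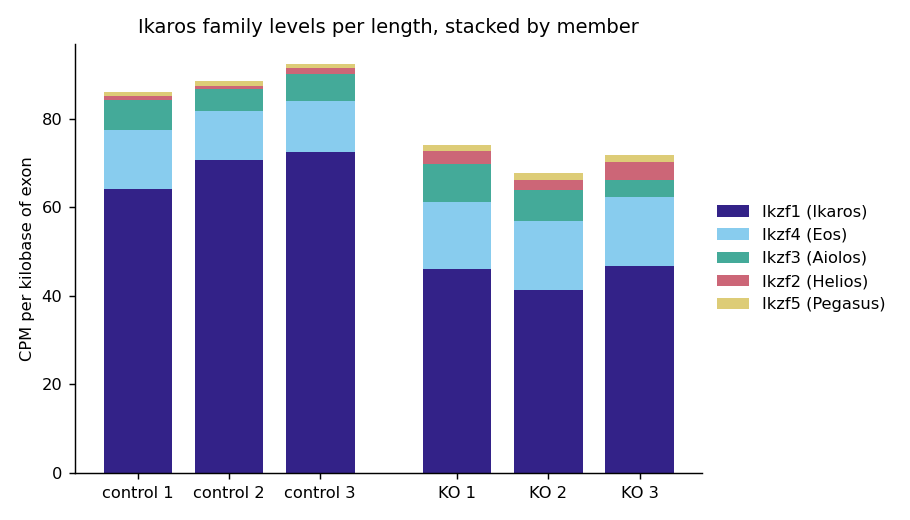
Per-length level of the 5 Ikaros family genes in each library, in CPM per kilobase of exon, stacked by member. The Ikzf1 block is shorter in the KO libraries (41.3 to 46.7) than in control (64.2 to 72.5), and the blocks of Ikzf4 and Ikzf2 are taller.

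The chromatin complexes through which Ikaros proteins act were examined as a list of 17 subunits of NuRD, SIN3 and CtBP, all tested. In this list 3 were called higher and 6 lower in KO and 8 were not called, where 46.1% of all tested genes were called, a share near that of the list. The median log2 fold change was −0.30 beside 0.013 over all tested genes. Related subunits moved apart, in pairs chosen after their values were seen. Hdac1, a class I histone deacetylase, rose from 244 ± 48.3 to 409 ± 31.5 CPM on average (SD, n = 3), or by 0.74 in log2 units (edgeR adjusted p = 0.00564), whereas its close relative Hdac2 fell from 112 ± 13.1 to 76.7 ± 6.47 CPM (−0.55, adjusted p = 0.00727). Sin3b rose from 99.7 ± 3.62 to 192 ± 21.5 CPM (0.94, SE 0.117, adjusted p = 0.000553), whereas the related scaffold gene Sin3a fell from 110 ± 8.58 to 77.7 ± 3.99 CPM (−0.51, adjusted p = 0.00536). These 4 calls held in each of the fits with 1 library left out.

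Within NuRD, Chd4, the main remodelling ATPase of the complex in lymphocytes and a known partner of Ikaros, was read at 786, 810 and 805 CPM in the wild type against 791, 737 and 840 CPM after loss of RTF1. The groups overlapped (log2 fold change −0.020, 95% interval −0.28 to 0.24, edgeR adjusted p = 0.900), and the sign turned with library size as the only scaling (0.067). The alternative ATPase gene Chd3 rose from 136 ± 23.9 to 215 ± 26.2 CPM on average (SD, n = 3), or by 0.66 in log2 units (adjusted p = 0.00924). Mbd3, which encodes a core subunit of the complex, fell from 80.9 ± 12.3 to 44.7 ± 7.17 CPM (−0.86, SE 0.158, adjusted p = 0.00295). Mta1 (−0.62, adjusted p = 0.00155) and Mta3 (−0.56, adjusted p = 0.0184), subunit genes of NuRD, also fell, as did Ctbp1 (−0.62, adjusted p = 0.00431), which encodes a corepressor that binds Ikaros and Eos. The call of Mta3 was lost without KO replicate 2. The related gene Mta2 was not called (0.011, edgeR adjusted p = 0.944), at 258 and 260 CPM on average in control and KO.

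The SWI/SNF list of 7 remodelling subunits, all tested, had 1 gene called higher and 2 lower, also near the 46.1% called among all tested genes, and a median log2 fold change of −0.19. Smarce1 rose (0.41, edgeR adjusted p = 0.0193), and Smarcb1 (−0.48, adjusted p = 0.0146) and Smarcc1 (−0.43, adjusted p = 0.0489) fell. None of these 3 calls held in all fits with 1 library left out: Smarce1 lost its call without control replicate 1 or 3 or KO replicate 2, Smarcb1 without KO replicate 2 or 3, and Smarcc1 without control replicate 1 or 2 or KO replicate 2 or 3. Smarca4, the ATPase gene, had a log2 fold change of −0.19 (adjusted p = 0.206).

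Few enzymes that act on Ikaros proteins were called. Of 11 genes for the cereblon ubiquitin ligase, casein kinase 2 and protein phosphatase 1, all tested, 1 was called, against 46.1% of all tested genes. This was Csnk2a1, 1 of the catalytic subunit genes of casein kinase 2, a kinase that phosphorylates Ikaros, with 284 ± 19.5 CPM in control and 207 ± 11.7 CPM in KO (SD, n = 3; change of −0.46 in log2 units, SE 0.112, edgeR adjusted p = 0.0103), not passed in the libraries numbered 1 and 2 alone (adjusted p = 0.0541). Csnk2a2, the other catalytic subunit gene, was not called (−0.16, adjusted p = 0.207). Crbn encodes cereblon, the receptor through which lenalidomide-type drugs direct Ikaros and Aiolos to degradation in human cells. It was read at 61.3, 61.3 and 80.7 CPM in the wild type against 75.1, 91.6 and 87.0 CPM after loss of RTF1, with overlapping groups (0.32, adjusted p = 0.0990). With the replicate number as a block Crbn was called (0.33, edgeR adjusted p = 0.0425), as it was without control replicate 3 (0.41, adjusted p = 0.0270), in the libraries numbered 1 and 2 (0.44, adjusted p = 0.0247) and under scaling by total counts alone (0.41, adjusted p = 0.0457). Without control replicate 1 its estimate was 0.19 (adjusted p = 0.379). Csnk2b, the regulatory subunit gene of casein kinase 2, had a log2 fold change of 0.27 (edgeR adjusted p = 0.101). Leaving out control replicate 2 gave a call (0.36, adjusted p = 0.0359), as did scaling by total counts (0.36, adjusted p = 0.0339), and the estimate was 0.13 without control replicate 3 and 0.15 in the libraries numbered 1 and 2.

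**Figure D4:**
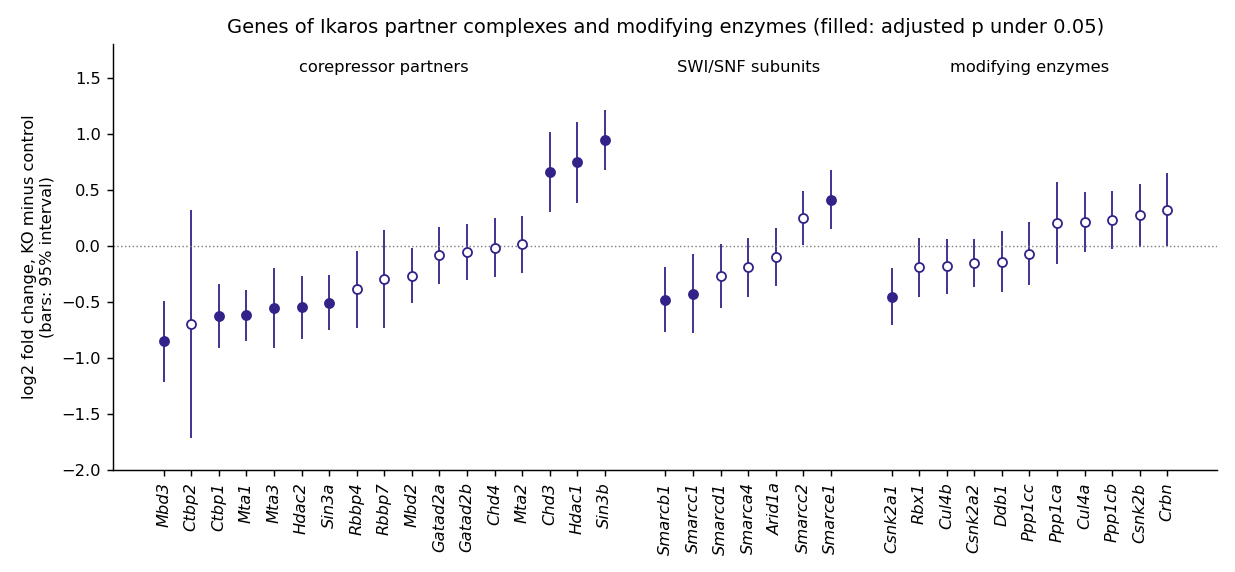
Log2 fold change, KO minus control, of each tested gene in the lists of corepressor partners, SWI/SNF subunits and modifying enzymes, with 95% intervals as bars. Filled points passed an adjusted p of 0.05: 9 of 17 corepressor genes, 3 of 7 SWI/SNF genes and 1 of 11 enzyme genes.

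Genes that earlier work links to Ikaros family factors in lymphocytes formed a list of 26, of which 23 were tested. Of these 3 were called higher, 8 lower and 12 not at all, again a share near the 46.1% of all tested genes, with a median log2 fold change of −0.35 that shrank to −0.090 in the libraries numbered 1 and 2. With the replicate number as a block 6 were called higher, the added ones being Il22, Notch1 and Notch3 (edgeR adjusted p = 0.0164, 0.0329 and 0.0144), and Cdkn1b was added to those called lower (adjusted p = 0.0469). Without KO replicate 2, 4 were called lower. Il2, which Aiolos and Ikaros silence, varied too much for a call: 76.5, 60.5 and 12.97 CPM in control, against 28.1, 6.17 and 25.4 CPM in KO (−1.33, SE 0.662, adjusted p = 0.128). Control replicate 3 overlapped the KO libraries, and without it Il2 was called lower (−1.85, edgeR adjusted p = 0.00781), as in the libraries numbered 1 and 2 (−2.02, adjusted p = 0.00595) and, at −1.35, with any count as the filter (adjusted p = 0.0421). Without KO replicate 2 the estimate was −0.90 (adjusted p = 0.288), and without control replicate 1 it was −0.99 (adjusted p = 0.309).

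Il10, whose expression Ikaros promotes in helper T cells, was 5.35-fold lower in KO (log2 fold change −2.42, SE 0.174, edgeR adjusted p = 7.1e-05). Tbx21, the Th1 regulator that Ikaros restrains in Th2 cells, was 6.66-fold higher (2.74, SE 0.408, adjusted p = 0.00118), with 2.73 to 4.25 CPM in control and 10.3 to 33.9 CPM in KO. Bcl6, a follicular helper factor that Aiolos can induce together with STAT3, was read at 8.39, 9.04 and 7.27 CPM in the wild type against 36.5, 48.4 and 41.7 CPM after loss of RTF1 (2.36, SE 0.163, adjusted p = 6.78e-05). KO replicate 3, with the least Ikzf3, had the middle Bcl6 value of its group, a rank in 3 libraries that cannot test a link between these genes. All 3 calls held in each fit with 1 library left out.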

How the data were processed

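Total RNA of Th17 cells was sequenced in 3 control and 3 KO libraries. The table the authors deposited holds whole-number counts per gene symbol. Per the submitters' processing notes, the build was mm10 and the tools named are STAR, featureCounts and DESeq2, while versions, annotation and strand setting are not given in the sources used here. Columns were assigned through the sample descriptions and groups through the titles.

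KO was tested against control with edgeR 4.0.16 (R 4.3.3): TMM factors, filterByExpr by group, quasi-likelihood F test without covariates, and Benjamini-Hochberg adjustment over 14268 genes (threshold 0.05). The SE is the absolute log2 fold change over the square root of F, and 95% intervals use the degrees of freedom of the fit. Precision follows from depth (93 to 19761 counts per member and library) and from the spread between libraries (biological coefficient of variation 0.212). Counting error alone understates uncertainty, since no molecular identifiers are stated. Gene positions, exon lengths and overlaps were taken by symbol from GENCODE M21 (GRCm38, the assembly of mm10), which matched 98.2% of symbols. Per-length levels are CPM per 1000 bases of exon.

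The members and lists were chosen with earlier results of these data known. By rule the text names the members, Rtf1, the 3 largest changes per list at a mean of at least 5 CPM, list genes with a role tied to a member (Il2, Il10, Bcl6, Ahr, Stat3, Foxp3, Tbx21, Crbn and Chd4), the 3 genes most alike to each member in pattern, and tested neighbours and overlapping genes. Hdac2, Sin3a, Chd3, Ctbp1, Mta1, Mta2, Mta3, Smarca4, Il17a, Il17f, Il22, Notch1, Notch3, Rbbp4, Rbbp7, Cdkn1b and Csnk2a2 were named after their values were seen. So were the marker genes Bst2, Tcf4, Siglech and Eomes. Markers of other cells, as summed CPM in control and KO, were 7.68 to 18.1 and 3.69 to 15.3 for B cells, 7.60 to 11.3 and 7.13 to 12.8 for CD8 T and NK cells, 1.16 to 1.50 and 2.11 to 3.87 for myeloid cells, 55.3 to 65.0 and 63.1 to 78.4 for plasmacytoid dendritic cells, and 1.18 to 2.92 and 0.988 to 2.03 for erythroid cells. Most of the plasmacytoid sum came from Bst2 and Tcf4 (34.7 and 27.5 CPM on average), while Siglech had at most 1 count in any library. In the CD8 T and NK list Eomes was called higher (log2 fold change 3.78, edgeR adjusted p = 0.000946), from 0.0991 to 1.55 CPM. The other 3 tested genes of that list were not called. The 5 Th17 markers summed to 1315 to 1985 and 486 to 1114, with 4 called lower and 1 not called, where 46.1% of all tested genes were called. The part of these cell types in the results was not tested.

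Both groups carry replicate numbers 1 to 3, whose meaning the labels do not give, though number 3 was male in both groups by its Y-linked and Xist counts. Deviations from the group mean correlated across genes at 0.27, 0.13 and 0.38 between equal numbers and at −0.39 to 0.20 between unequal ones, where control 2 was closer to KO 1 (0.20) than to KO 2. All equal-number values exceeded 0.1, but they do not settle whether equal numbers are pairs. For number 3, pairing cannot be told apart from the shared sex. The main fit has no block, and a fit with the number as a block is an alternative. The other alternatives were other scalings (DESeq2 size factors, upper-quartile, library size only and TMM computed after removing the 50 genes with most counts), low-count filters (any count, or a mean count of at least 10), the test of DESeq2 1.42.0, leaving out each library, the libraries numbered 1 and 2 alone, and another gene length.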

Additional observations from a re-analysis of the deposited data

How the results depend on the processing

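The decrease of Ikzf1 and the increase of Ikzf2 kept their direction and their call under all 15 alternatives to the fit. Ikzf3 was called under none, and its log2 fold change ran from −0.12 to 0.39 when 1 library was left out. Ikzf4 and Ikzf5 kept their direction throughout, at 0.29 to 0.38 and 0.50 to 0.65 with 1 library left out. In the libraries numbered 1 and 2 both lost their call (0.33 and 0.51), and with any count as the filter Ikzf5 did (0.59). Genes called lower numbered 2170 to 3700 with 1 library left out, the lowest without KO replicate 2. With the replicate block no member's call changed. The block gave 6 linked genes higher (3 without it) and 1 modifying enzyme higher (0 without it), while Rbbp4, Rbbp7 and Cdkn1b became called lower.

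List counts are small and moved. SWI/SNF genes called higher were 0 to 1, and lower 0 to 2, with 1 library left out. With library size only they were 2 higher and 1 lower, and lower ones were 1 with DESeq2 size factors and 1 under the filter of mean count 10 or more. Modifying enzymes called higher were 0 to 1 with 1 library left out, 3 with library size only and 1 in the libraries numbered 1 and 2, where 0 were lower. Linked genes called lower were 4 to 9 with 1 library left out. The cause was not tested.

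Per-length levels scale with the length used. With the longest transcript they were, in control and KO, 77.3 and 49.99 CPM per kilobase for Ikzf1, 1.16 and 3.87 for Ikzf2, 11.3 and 12.3 for Ikzf3, 13.9 and 17.9 for Ikzf4, and 1.26 and 1.92 for Ikzf5. Shares then moved to 73.6% and 58.1% for Ikzf1 and 10.8% and 14.3% for Ikzf3, and to 1.203% in control for Ikzf5. With 1 library left out, the control level ran from 68.4 to 73.6 for Ikzf1 and from 0.966 to 1.03 for Ikzf5. Signs turned for genes near 0. With library size only Chd4 was at 0.067 and Rps26 at 0.024. In the libraries numbered 1 and 2 Slc37a2 was at 0.094 and Ccdc88a at 0.035. With 1 library left out the ranges were −0.10 to 0.031 for Chd4, −0.19 to 0.017 for Rps26, −0.25 to 0.39 for Rnf152, −0.36 to 0.033 for Slc37a2 and −0.25 to 0.078 for Ccdc88a.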

Other observations

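The genes around the members on the chromosome did not share 1 direction. Fignl1, a DNA repair ATPase gene 14504 bases from Ikzf1, fell from 90.9 to 33.7 CPM (log2 fold change −1.43, edgeR adjusted p = 0.00168), a larger decrease than that of Ikzf1, while Spata48 on the other side held 0.532 and 0.811 CPM in control and KO and was not called (edgeR adjusted p = 0.261). Suox, the sulfite oxidase gene 23902 bases from Ikzf4, rose from 19.8 to 81.0 CPM (2.03, adjusted p = 7.86e-05), while Rps26, the ribosomal protein gene 4095 bases away on the other side, had a log2 fold change of −0.067 (adjusted p = 0.704). For Ikzf2 the nearest tested protein-coding genes, Lancl1 and Bard1 at 2492341 and 1340252 bases, both fell (−1.32 and −1.61, adjusted p = 0.000721 and 0.000982) where Ikzf2 rose. Beside Ikzf3, Grb7, an adaptor gene 9528 bases away, rose from 0.496 to 2.04 CPM (2.05, adjusted p = 0.0130, lost without KO replicate 2), and Zpbp2 was not called (0.57, adjusted p = 0.260).

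Genes with the most similar pattern over the 6 libraries were sought among 9445 tested genes averaging 5 CPM or more, by the root mean square difference of centred log2 CPM. Closest to Ikzf1 were Fars2, Ptprc and Ncf4 (differences of 0.037, 0.038 and 0.041), of which Ptprc encodes the leukocyte surface phosphatase CD45. Closest to Ikzf4 were Slc15a4, Med25 and Vps37c (0.040, 0.040 and 0.042), and closest to Ikzf5 were Ppp1r18, Klhdc3 and Mfap1a (0.015, 0.017 and 0.031). For Ikzf2 they were Insl6, Herc6 and Prag1 (0.13, 0.14 and 0.15), and for Ikzf3, which had no call, Rnf152, Slc37a2 and Ccdc88a (0.15, 0.17 and 0.19). The same 6 libraries underlie all of these values.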
